A study of Homo sapiens with 8 samples.

Results

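The 40 genes described here encode the folding machinery of the endoplasmic reticulum (ER), the sensors of the unfolded protein response, and the stress factors that lie downstream of the transcription factor ATF4. They were taken from a list of named genes, by function, with earlier results of these data known. By role the list held 6 sensors and regulators, 11 chaperones and cochaperones, 5 disulfide isomerases and oxidases, 8 genes of ER-associated degradation, and 10 genes of the ATF4 arm. All 40 were found by symbol among the 38032 gene identifiers, and 39 reached 10 counts in 2 or more libraries, a filter that 13943 genes passed. The gene that did not pass was DERL3, with 0 counts in every library, where 3 counts would correspond to 0.107 to 0.137 CPM, the count scaled to the size of the library.

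The cells were HepG2, a human hepatocellular carcinoma line labelled wild type, grown for 8 days. The 2D-primed group (n = 4 libraries) came from wells of flat culture plates, and the 3D-primed group (n = 4 libraries) came from Alvetex inserts, a porous and inert polystyrene membrane. Both groups received minimal essential medium with non-essential amino acids, glutamine and foetal bovine serum, and cells of both groups were released with trypsin before lysis. Inserts were seeded at a high density so that cells would layer, and they had medium both below and above the membrane. Differences in seeding and medium supply cannot be told apart from that of the surface. Poly(A) RNA was sequenced from directional libraries, and the question asked of these genes was whether the 2 culture formats differed in the ER stress response, arm by arm. The labels number the replicates without saying that they were separate cultures, so the p-values measure only the spread between these libraries, which may be technical.

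An excess of unfolded protein in the ER lumen is read by the sensors IRE1, PERK and ATF6. ATF6 and the spliced form of XBP1, which IRE1 produces, act mainly on genes for chaperones and degradation components, whereas PERK phosphorylates the translation factor eIF2 and thereby favours translation of ATF4. The kinase GCN2, which senses uncharged tRNA in amino acid shortage, phosphorylates the same factor, so ATF4 and its targets can respond without unfolded protein. Hepatocytes secrete large amounts of plasma protein and are rich in ER for that reason.

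Total counts lay between 21599630 and 25019499 in the 2D-primed libraries and between 22153063 and 27844077 in the 3D-primed libraries, with p = 0.257 for the difference of means (exact permutation, two-sided, n = 4 per group). Mitochondrially encoded transcripts took 1.40 to 1.81% of counts in 2D-primed and 2.47 to 2.98% in 3D-primed libraries (p = 0.0286 by the same exact test, the smallest p that n = 4 per group allows), and their part in the results below was not tested. All 7 hepatocyte markers passed the filter, and 5 were called higher and 2 lower in 3D-primed cells by edgeR's quasi-likelihood test. Summed levels of the 7 were 68668 to 74721 CPM in the 2D-primed group and 96107 to 108106 CPM in 3D-primed libraries. ALB had the most counts of them in every library. Of 15 markers of fibroblasts, endothelium and leukocytes, 7 (COL1A2, DCN, LUM, KDR, TEK, PTPRC and CSF1R) had 0 to 2 counts per library and 8 passed the filter, of which 4 were called higher and 3 lower in 3D-primed cells by edgeR's quasi-likelihood test. Their summed levels were 10.99 to 11.97 CPM in 2D-primed against 15.1 to 18.1 CPM in 3D-primed libraries for fibroblasts, 5.58 to 7.68 against 4.16 to 5.70 CPM for endothelium and 2194 to 2286 against 2421 to 3027 CPM for leukocytes. The lower ones were COL1A1 (16 to 28 counts per library in 2D-primed and 0 to 3 in 3D-primed cells), CDH5 (85 to 126 and 31 to 57 counts) and CD68 (1567 to 1827 and 750 to 1096 counts). Among the 4 higher ones were PDGFRB (236 to 262 and 364 to 476 counts), CD14 (34 to 44 and 61 to 94 counts) and LYZ (46286 to 53752 and 56962 to 79235 counts). The part of all these markers in the results below was not tested. Only HepG2 cells were seeded, so no number of cells of other types was read from these markers. In bulk RNA, fewer cells that express a gene and less RNA per cell cannot be told apart. 3D-primed replicate 3 was the 3D-primed library nearest to the 2D-primed mean for 18 of the 32 called members, and for 45.0% of all called genes.

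Of the 39 members tested, 27 were higher and 5 were lower in 3D-primed cells at an adjusted p of 0.05 (edgeR's quasi-likelihood test), and 7 did not pass. Over all 13943 genes the same test called 63.9%, with 32.4% higher and 31.6% lower. The members' share called higher lay above that background and their share called lower below it. Because the members were chosen with earlier results of these data known, this comparison is a description and no evidence of enrichment. The median log2 fold change of the members was 0.26, against 0.01 over all genes tested. CHAC1 passed the filter only through 3D-primed libraries, and without it 26 of 38 members were higher, 5 were lower and the median was 0.24. The highest and lowest libraries of the 2 groups did not overlap for 31 of 39 members (30 of 38 without CHAC1), against 59.8% of all genes. DESeq2, which called 60.4% of all genes, also put 27 members higher and 5 lower. Grouped by arm, the 23 tested genes of chaperones, disulfide formation and degradation held 18 genes called higher and 0 called lower. Within the ATF4 arm without CHAC1, 5 of 9 genes were higher and 4 were lower.

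**Figure D1:**
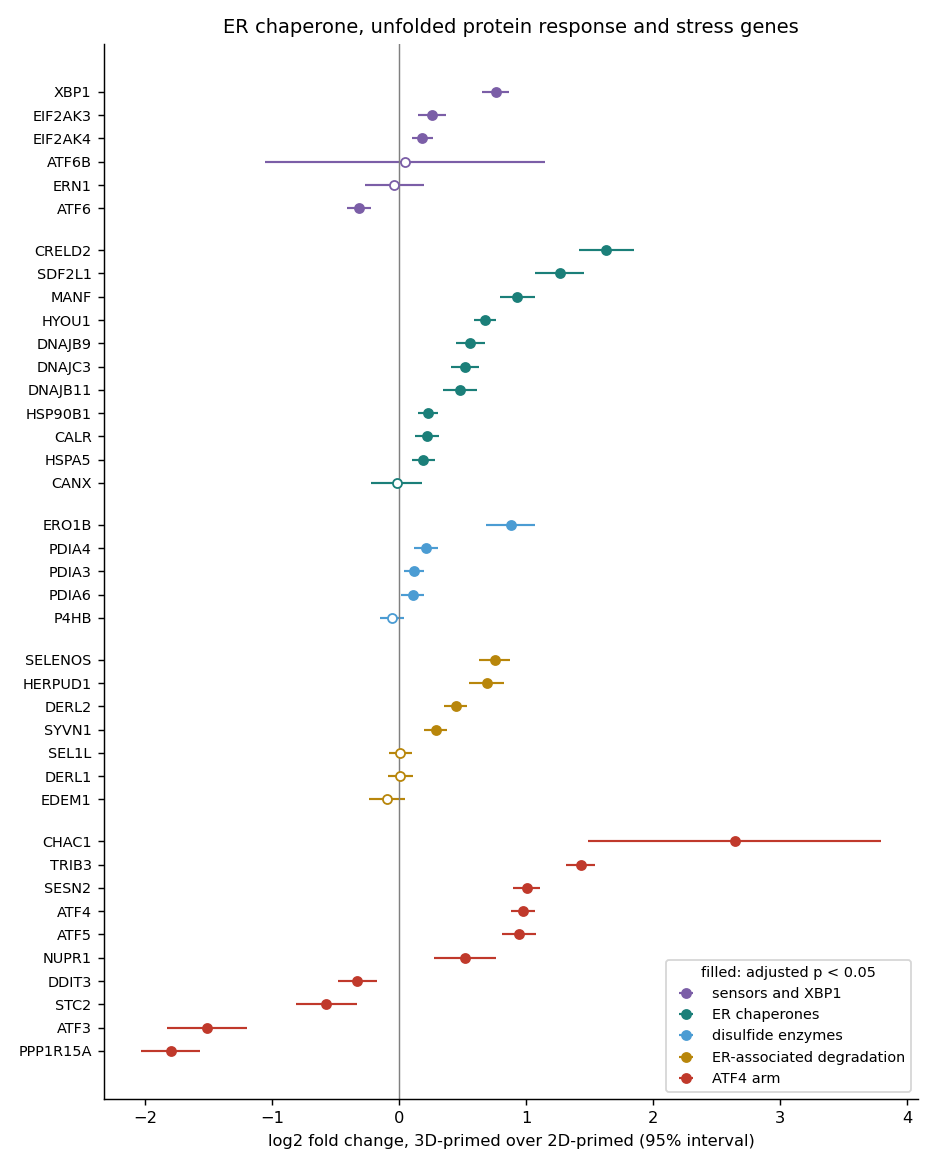
Log2 fold change of each tested member, 3D-primed over 2D-primed, with its 95% confidence interval from edgeR (x axis), grouped by role (y axis). Filled points passed the test. All filled points of the chaperone, disulfide and degradation groups lie right of 0, up to CRELD2 at 1.63, whereas the ATF4 arm spans CHAC1 at 2.64, a fitted value from few counts, TRIB3 at 1.43 and PPP1R15A at -1.80.

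The sequences before the gene starts were examined for elements of both arms, and the matches are printed here as a description. The choice of genes did not read sequence, but the members were listed as genes of the ER stress response. A high share of matches among them is therefore no independent result. RefSeq promoter windows (build GRCh38.p14, 250 bases before to 50 bases after the start) were available for 36 of the 40 members. The ER stress element was searched on both strands as CCAAT and CCACG with 9 bases between them. It was found in 22 of 27305 windows (0.0806%) and in 7 of 36 member windows (19.4%), of which 5 belonged to the 11 chaperones, 1 to XBP1 and 1 to ERO1B. None of the 6 degradation gene windows and none of the 9 ATF4 arm windows held these letters at this spacing. This says nothing about sequence outside the window. Nor does it cover the same parts at another spacing or order inside the window, which were not searched. Such arrangements do occur among the members. The HYOU1 window read TGACGTGgtccaat and the HERPUD1 window read gattgggccacgt, each with CCAAT and CCACG on opposite strands beside each other. The matches are given below in the orientation of the element, with its fixed parts in capitals, from 5′ to 3′.
HSPA5, -66 to -48: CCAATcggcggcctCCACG
HSP90B1, -194 to -176: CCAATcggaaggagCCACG
HSP90B1, -89 to -71, reverse strand: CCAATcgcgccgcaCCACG
CALR, -225 to -207, reverse strand: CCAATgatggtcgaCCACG
CANX, -151 to -133: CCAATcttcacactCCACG
CRELD2, -80 to -62, reverse strand: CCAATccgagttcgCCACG
XBP1, -52 to -34: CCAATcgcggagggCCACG
ERO1B, -243 to -225, reverse strand: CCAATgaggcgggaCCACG

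Positions are counted from the RefSeq start, with -1 as the base before it. GENCODE gives CRELD2, HSP90B1, CANX and CHAC1 a first start further upstream, so their matches lie inside the GENCODE gene spans. The longer context is printed for HSPA5, the most abundant Hsp70 of the ER, for XBP1, and for CRELD2, whose change was the largest of the chaperones. Each run is given in the direction of the gene, stops before bases that belong to an exon of a protein-coding gene, and has the element in capitals (reverse complement in CRELD2).
HSPA5, chr9:125241383-125241593, minus strand: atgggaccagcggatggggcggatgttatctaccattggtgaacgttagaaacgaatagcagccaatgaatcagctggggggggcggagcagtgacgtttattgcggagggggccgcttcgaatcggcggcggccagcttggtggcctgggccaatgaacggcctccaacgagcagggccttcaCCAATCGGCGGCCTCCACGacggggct
XBP1, chr22:28800598-28800819, minus strand: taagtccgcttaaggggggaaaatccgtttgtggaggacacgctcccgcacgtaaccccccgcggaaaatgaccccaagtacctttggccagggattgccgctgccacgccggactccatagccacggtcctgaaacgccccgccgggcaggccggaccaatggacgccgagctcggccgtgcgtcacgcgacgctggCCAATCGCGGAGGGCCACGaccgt
CRELD2, chr22:49918439-49918633, plus strand: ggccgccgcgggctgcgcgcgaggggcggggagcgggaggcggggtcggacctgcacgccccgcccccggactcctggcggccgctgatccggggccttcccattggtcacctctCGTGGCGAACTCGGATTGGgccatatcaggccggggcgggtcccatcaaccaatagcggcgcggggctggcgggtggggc

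The core of the unfolded protein response element bound by XBP1 and ATF6, TGACGTG, was present in 546 of all windows (2.00%) and in 1 member window, that of the chaperone gene HYOU1 (-188 to -182). The core of the composite element bound by ATF4 with C/EBP proteins, TGATGNAA, was present in 1003 of all windows (3.67%) and in 3 of 36 member windows (8.33%), those of ATF3, CHAC1 and HERPUD1. Among the metabolic targets of ATF4, 27 listed genes that include amino acid synthesis, amino acid transport and tRNA charging, it was present in 6 of 22 windows (27.3%). No listed match overlapped a match of another motif. The ATF4 element is shown in capitals within 30 bases of the gene strand, as its reverse complement in CHAC1 and HERPUD1.
ATF3, chr1:212565205-212565234, plus strand: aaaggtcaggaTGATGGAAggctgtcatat
CHAC1, chr15:40953251-40953280, plus strand: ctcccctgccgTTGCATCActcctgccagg
HERPUD1, chr16:56931955-56931984, plus strand: gacgcggcgggTTGCATCAgcccgtgccca
These 3 genes, each with the same core before its RefSeq start, did not change alike, since HERPUD1 was higher and ATF3 was lower in 3D-primed cells (values below). CHAC1 was also higher, but from few counts and tested only through its 3D-primed libraries.

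**Figure D2:**
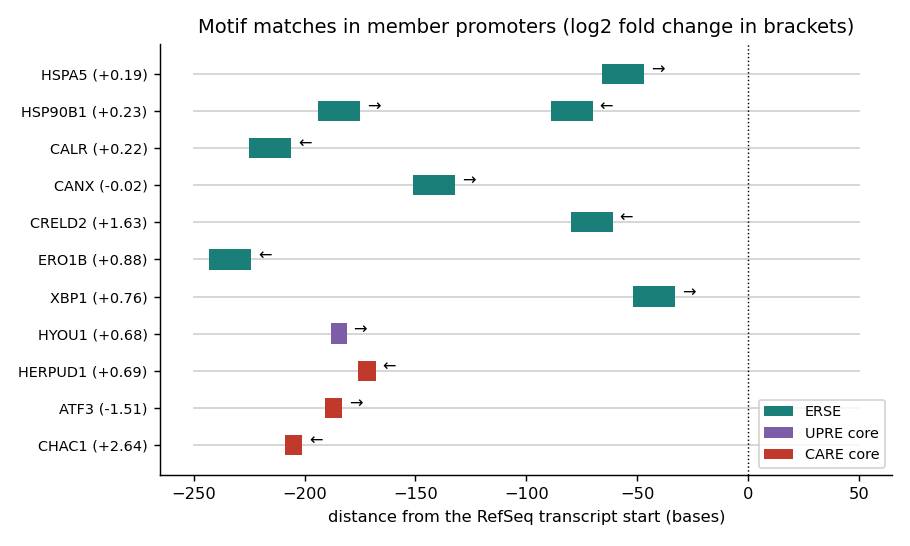
Places of the motif matches in the member promoter windows, as the distance in bases from the RefSeq gene start (x axis), with 1 line per gene and its log2 fold change in brackets (y axis). Colours mark the ER stress element (ERSE), the core of the unfolded protein response element (UPRE core) and the ATF4 element core (CARE core), and arrows give the strand. ER stress element matches at the searched spacing lie in chaperone genes, XBP1 and ERO1B, and the ATF4 element cores lie in ATF3, CHAC1 and HERPUD1. Other arrangements of the ER stress element, as in HYOU1 and HERPUD1, are not drawn.

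Among the sensors, ATF6 was lower and PERK, GCN2 and XBP1 transcripts were higher in 3D-primed cells, while no difference was detected for IRE1. XBP1 (chr22:28794555-28800597), the transcription factor whose mRNA is spliced by IRE1, stood at 217, 235, 217 and 234 CPM in the 2D-primed libraries and at 394, 386, 357 and 395 CPM in the 3D-primed libraries. Every 3D-primed library was above every 2D-primed library. Its log2 fold change was 0.76 (SE 0.0475), a 1.69-fold rise (edgeR's quasi-likelihood test, adjusted p = 4.5e-07), and gene counts do not separate spliced from unspliced XBP1.

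ATF6, the sensor that is cleaved in the Golgi to release a transcription factor, stood at 76.8, 75.6, 77.0 and 71.2 CPM in 2D-primed libraries and at 59.2, 60.0, 63.6 and 58.6 CPM in 3D-primed libraries. Every 3D-primed library was below every 2D-primed library, and ATF6 fell by 0.32 on the log2 scale (SE 0.0418, edgeR's adjusted p = 8e-05). The kinase genes moved the other way by small amounts. EIF2AK3, which encodes PERK, rose from 40.1 ± 1.92 to 48.0 ± 2.41 CPM (SD, n = 4 per group, log2 fold change 0.26, edgeR's adjusted p = 0.001). EIF2AK4, which encodes GCN2, rose from 87.1 ± 2.60 to 98.8 ± 2.59 CPM (SD, n = 4 per group, log2 fold change 0.18, edgeR's adjusted p = 0.0016). Neither kinase gene had libraries of the 2 groups overlapping.

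ERN1, which encodes IRE1, stood at 36.8, 43.2, 44.9 and 42.4 CPM in 2D-primed libraries and at 38.4, 37.1, 50.8 and 36.7 CPM in 3D-primed libraries. The groups overlapped with or without 3D-primed replicate 3, the highest of all 8 libraries, and the log2 fold change was -0.04 (95% confidence interval -0.27 to 0.20, edgeR's adjusted p = 0.78), with a sign that turned under upper quartile scaling. Without that library ERN1 was lower in 3D-primed cells, at -0.17 on the log2 scale (edgeR's adjusted p = 0.038). ATF6B, the relative of ATF6, ranged from 9.35 to 36.9 CPM within 2D-primed and from 9.37 to 28.2 CPM within 3D-primed libraries. Its interval was wide (log2 fold change 0.04, 95% confidence interval -1.06 to 1.15), and as a gene of the MHC region, which has alternate copies in the human assembly, its counts are uncertain.

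Among the chaperones, 10 of 11 were higher in 3D-primed cells, against 32.4% of all genes, 0 were lower, and the median log2 fold change was 0.52. The size of the change differed widely between them, from 1.14-fold for HSPA5 to 3.10-fold for CRELD2. The summed level of the 11 genes was 5764 to 6045 CPM in the 2D-primed group and 6900.1 to 7388 CPM in 3D-primed libraries, with the higher range in each of the 3D-primed libraries.

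HSPA5 (chr9:125234853-125241382), also called BiP, is the main Hsp70 of the ER lumen and the chaperone that holds the sensors inactive. It stood at 2082, 1889.6, 1976 and 1890.1 CPM in 2D-primed libraries and at 2282, 2293, 2175 and 2189.9 CPM in 3D-primed libraries. The groups did not overlap, although 2D-primed replicate 1 came close to the lower 3D-primed libraries. HSPA5 rose by 0.19 on the log2 scale (SE 0.0414, edgeR's quasi-likelihood test, adjusted p = 0.0023). Changes of the same small size were seen for HSP90B1, the Hsp90 of the ER, which rose from 2008 ± 23.9 to 2349 ± 89.9 CPM (log2 fold change 0.23, edgeR's adjusted p = 0.00029), and for the glycoprotein chaperone CALR, which rose from 1128 ± 9.88 to 1313 ± 66.2 CPM (log2 fold change 0.22, edgeR's adjusted p = 0.00083; SD, n = 4 per group). Neither overlapped between groups. CANX, the membrane-bound partner of CALR in the calnexin cycle, stood at 162, 169, 178 and 151 CPM in 2D-primed libraries and at 141, 162, 193 and 153 CPM in 3D-primed libraries. The CANX groups overlapped in full, with a log2 fold change of -0.02 (95% confidence interval -0.22 to 0.18, edgeR's adjusted p = 0.86) whose sign turned under total-count and upper quartile scaling.

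The larger changes belonged to cofactors and secreted ER proteins of lower level than HSPA5, HSP90B1 and CALR, though not all of lower level than CANX. CRELD2 (chr22:49918167-49927540), a secreted ER stress-inducible protein with EGF-like repeats, stood at 11.2, 8.602, 7.895 and 9.45 CPM in 2D-primed libraries and at 28.9, 30.2, 26.4 and 29.3 CPM in 3D-primed libraries. The lowest 3D-primed library was well above the highest 2D-primed library, and CRELD2 rose 3.10-fold (log2 fold change 1.63, SE 0.0965, edgeR's adjusted p = 3.1e-07). SDF2L1 (chr22:21642302-21644299), a member of the ER chaperone complex, stood at 17.2, 14.9, 13.7 and 14.2 CPM in 2D-primed libraries and at 36.3, 39.1, 31.3 and 37.3 CPM in 3D-primed libraries. It rose 2.40-fold without overlap (log2 fold change 1.26, SE 0.0869, edgeR's adjusted p = 8.3e-07). MANF, a secreted cofactor of HSPA5, stood at 78.0, 65.1, 66.5 and 65.4 CPM in 2D-primed libraries and at 132, 135, 123 and 133 CPM in 3D-primed libraries. It rose 1.90-fold (log2 fold change 0.93, SE 0.0617, edgeR's adjusted p = 6.6e-07), with 2D-primed replicate 1 above the other 2D-primed libraries. HYOU1, the Hsp110 that exchanges nucleotide on HSPA5 and whose window held TGACGTG, rose from 299.6 ± 6.39 to 479 ± 16.7 CPM (log2 fold change 0.68, SD, n = 4 per group, edgeR's adjusted p = 2.3e-07).

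The J-domain cochaperones, which bring clients to HSPA5 and stimulate its ATPase, rose together by about the same amount. DNAJB9 rose 1.48-fold from 51.7 ± 3.06 to 76.3 ± 3.52 CPM (log2 fold change 0.56, edgeR's adjusted p = 5.8e-06). DNAJC3, also an inhibitor of eIF2 kinases, rose from 89.3 ± 6.06 to 128 ± 3.67 CPM (log2 fold change 0.52, edgeR's adjusted p = 8.7e-06). DNAJB11 rose from 84.9 ± 5.59 to 118.5 ± 7.86 CPM (log2 fold change 0.48, edgeR's adjusted p = 5.5e-05; SD, n = 4 per group for all). None of the 3 overlapped between groups.

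**Figure D3:**
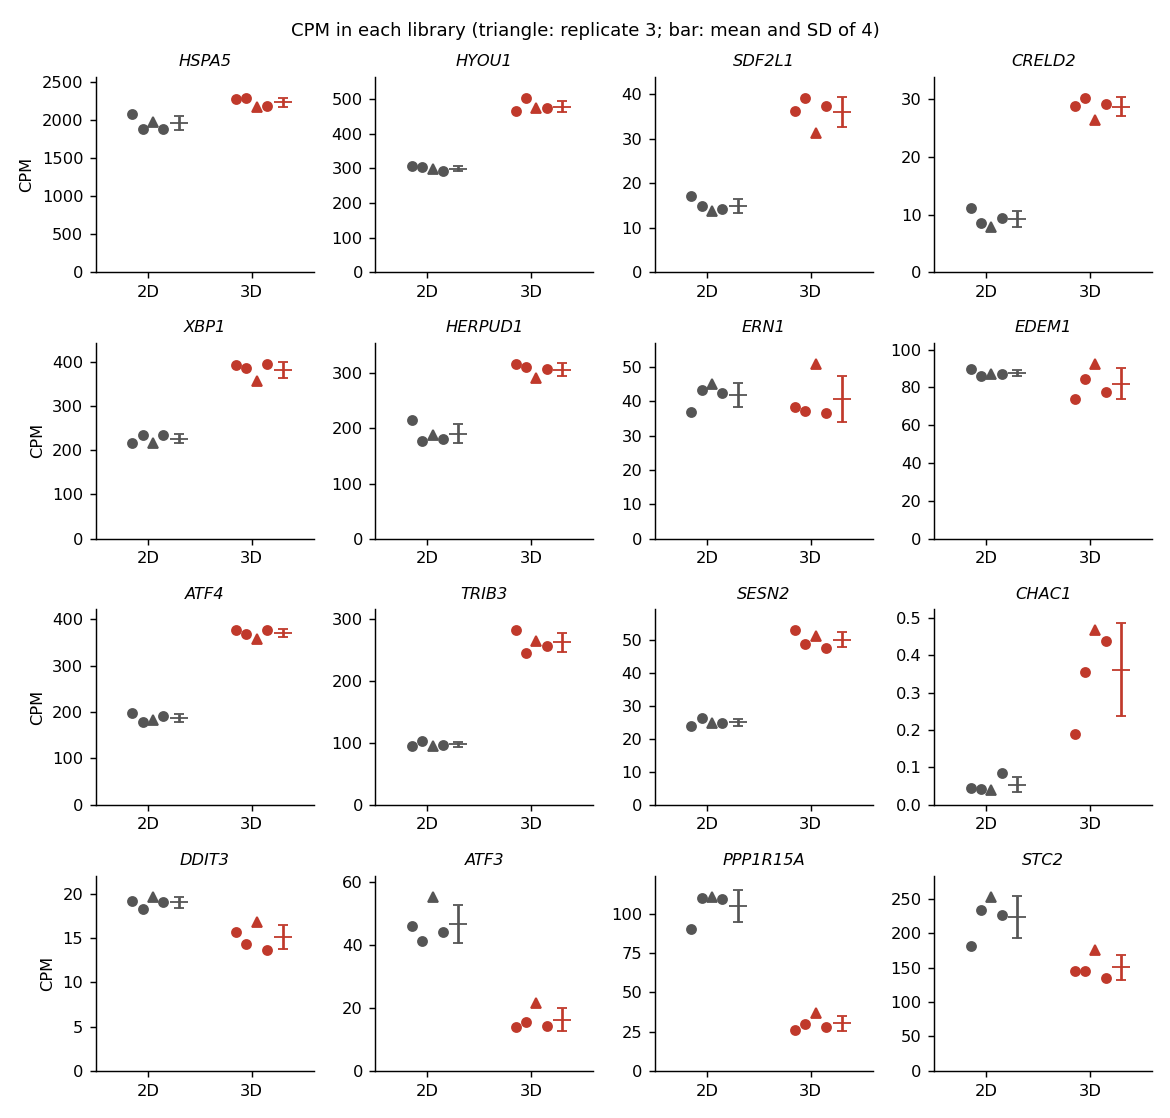
Level of 16 members in each library as CPM after TMM scaling (y axis, from 0), with 2D-primed (2D) and 3D-primed (3D) libraries as points, replicate 3 as a triangle, and the mean and SD of 4 as a bar. The 3D-primed libraries sit above the 2D-primed libraries for HSPA5, CRELD2, ATF4 and TRIB3, and below them for ATF3 and PPP1R15A.

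Levels per kilobase of transcript allowed members to be set against each other. Over the 16 chaperones and disulfide genes, the log2 2D-primed level per kilobase and the log2 fold change had a Pearson correlation of -0.71 and a Spearman correlation of -0.67, both across genes that share the same libraries. Over all 13943 genes, with the level not divided by length, the values were -0.15 and -0.17. In 2D-primed cells HSP90B1 stood at 722, CALR at 593 and HYOU1 at 65.2 CPM per kilobase, against 6.50 for CRELD2, and in 3D-primed cells at 844, 691, 104 and 20.1 CPM per kilobase in that order. The most abundant folding genes thus showed the smaller log2 fold changes, although the level and the fold change were computed from the same 2D-primed libraries.

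**Figure D4:**
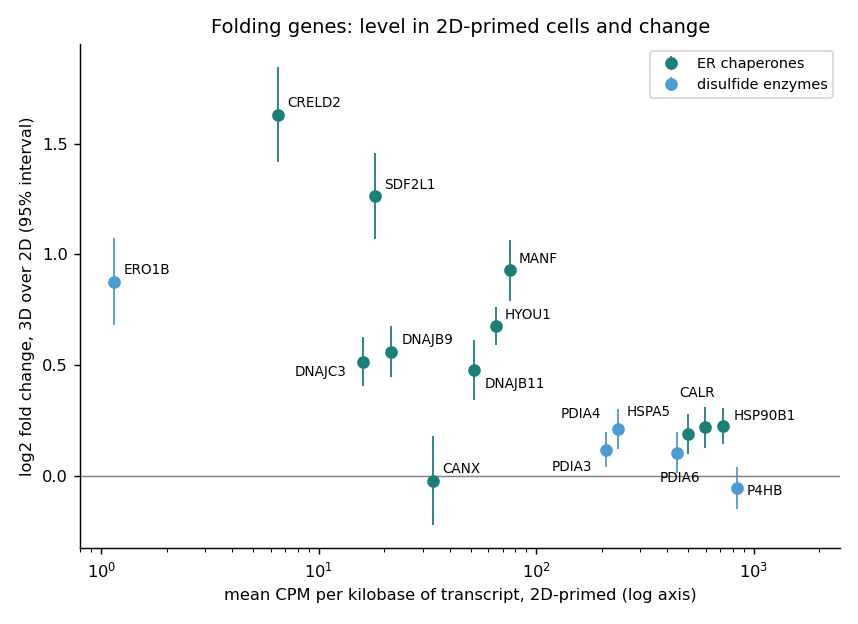
Log2 fold change, 3D-primed over 2D-primed (y axis), against the mean 2D-primed level in CPM per kilobase of transcript (x axis, log axis) for the 16 chaperone and disulfide genes, 1 point per gene with its 95% interval. CRELD2 lies at upper left (6.50 CPM per kilobase, 1.63) and HSP90B1 at lower right (722 CPM per kilobase, 0.23).

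The disulfide isomerases, which form and rearrange disulfide bonds in new proteins, differed less. Of the 5 genes, 4 were called higher and 0 lower, against 32.4% and 31.6% of all genes, with a median log2 fold change of 0.12 and a ratio of 1.04 between the group means of their summed level. ERO1B, an oxidase that recharges these isomerases, stood at 6.37, 5.36, 5.94 and 5.23 CPM in 2D-primed libraries and at 9.62, 11.3, 10.7 and 10.4 CPM in 3D-primed libraries. It rose 1.84-fold without overlap (log2 fold change 0.88, SE 0.0879, edgeR's adjusted p = 1.1e-05). PDIA4 rose from 659 ± 16.0 to 763 ± 34.1 CPM (log2 fold change 0.21, edgeR's adjusted p = 0.0011) and PDIA3 from 771 ± 13.9 to 837 ± 22.9 CPM (log2 fold change 0.12, edgeR's adjusted p = 0.012; SD, n = 4 per group). Reads of PDIA3 may be shared with its pseudogene PDIA3P1, which had 142 to 237 counts per library and rose by 0.40 on the log2 scale (edgeR's adjusted p = 0.00079). PDIA6 overlapped between groups, at 1012 ± 28.7 and 1089 ± 49.2 CPM (SD, n = 4 per group), and its call (log2 fold change 0.11, edgeR's adjusted p = 0.048) was lost in 11 of 17 alternative analyses. P4HB, the archetypal isomerase, stood at 1987 to 2117 CPM in the 2D-primed group and 1892 to 2118 CPM in 3D-primed libraries. Its log2 fold change was -0.05 (95% confidence interval -0.15 to 0.04, edgeR's adjusted p = 0.3), and -0.09 without 3D-primed replicate 1, where it passed the test (adjusted p = 0.037).

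ER-associated degradation moves misfolded proteins to the cytosol for the proteasome. Of its 7 tested members 4 were higher, 0 were lower and 3 did not pass, with a median log2 fold change of 0.29. The share called, 4 of 7, was below the 63.9% called in either direction over all genes, while the share called higher was above the 32.4% of all genes. HERPUD1, which organises the ubiquitin ligase complex, stood at 215, 177, 189 and 182 CPM in 2D-primed libraries and at 317, 312, 291 and 308 CPM in 3D-primed libraries. It rose 1.61-fold without overlap (log2 fold change 0.69, SE 0.0613, edgeR's adjusted p = 4.7e-06). SELENOS, a selenoprotein that recruits the p97 ATPase, stood at 31.4, 27.7, 29.8 and 30.9 CPM in 2D-primed libraries and at 52.5, 50.9, 46.3 and 52.3 CPM in 3D-primed libraries, a rise of 1.69-fold (edgeR's adjusted p = 1.2e-06). DERL2, a membrane component of the export channel, rose 1.36-fold from 24.2 ± 0.703 to 33.0 ± 0.756 CPM (edgeR's adjusted p = 6e-06). SYVN1, the ubiquitin ligase HRD1, rose from 85.4 ± 2.33 to 104 ± 4.25 CPM (log2 fold change 0.29, edgeR's adjusted p = 0.00013; SD, n = 4 per group). None of these 4 overlapped between groups.

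The other degradation members overlapped between groups. SEL1L, the adaptor of SYVN1, had a log2 fold change of 0.01 (95% confidence interval -0.08 to 0.10, edgeR's adjusted p = 0.83), which bounds any difference to a small one. For DERL1, the relative of DERL2, it was also 0.01 (95% confidence interval -0.09 to 0.11, edgeR's adjusted p = 0.86), with a sign that turned under median-of-ratios scaling and DESeq2. EDEM1, a lectin that selects trimmed glycoproteins, stood at 87.5 ± 1.502 CPM in the 2D-primed group and 82.1 ± 8.12 CPM in 3D-primed libraries (SD, n = 4 per group, log2 fold change -0.09, 95% confidence interval -0.23 to 0.05, edgeR's adjusted p = 0.23). 3D-primed replicate 3 was the highest of the 8 EDEM1 libraries, and without it the value was -0.16 (edgeR's adjusted p = 0.017).

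The genes of the ATF4 arm moved in opposite directions. ATF4, ATF5, TRIB3, SESN2, NUPR1 and CHAC1 were higher, and DDIT3, ATF3, PPP1R15A and STC2 were lower in 3D-primed cells, with 0 genes short of the test. Without CHAC1, which was tested only through its 3D-primed counts, 5 of 9 were higher and 4 were lower, against 32.4% and 31.6% of all genes. Of the genes ATF4, DDIT3, ATF3 and TRIB3, 2 were higher and 2 were lower. The median log2 fold change of the 10 genes was 0.73, and 0.52 for the 9 without CHAC1, neither of which describes a group split in this way.

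ATF4 (chr22:39519695-39522683), the transcription factor of the integrated stress response, stood at 199, 179, 182 and 191 CPM in 2D-primed libraries and at 376, 369, 357 and 376 CPM in 3D-primed libraries. Its level was 1.97-fold higher (log2 fold change 0.98, SE 0.0421, edgeR's quasi-likelihood test, adjusted p = 5.6e-08), although ATF4 protein depends on translation that RNA does not show. TRIB3 (chr20:362835-397559), a pseudokinase that ATF4 induces, stood at 94.6, 103, 95.7 and 96.1 CPM in 2D-primed libraries and at 282, 245, 265 and 257 CPM in 3D-primed libraries. The groups were far apart, and TRIB3 rose 2.69-fold (log2 fold change 1.43, SE 0.0507, edgeR's adjusted p = 2.1e-08). SESN2, an inhibitor of mTORC1 signalling, rose 2.01-fold from 24.9 ± 1.05 to 49.99 ± 2.35 CPM (edgeR's adjusted p = 9.5e-08). ATF5, a transcription factor related to ATF4, rose 1.92-fold from 17.3 ± 1.29 to 33.35 ± 1.40 CPM (edgeR's adjusted p = 5.2e-07; SD, n = 4 per group). NUPR1, a small stress-induced chromatin protein, rose from 5.40 ± 0.547 to 7.72 ± 0.835 CPM (SD, n = 4 per group, log2 fold change 0.52, edgeR's adjusted p = 0.0019).

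CHAC1 (chr15:40952962-40956512), a glutathione-degrading enzyme and target of ATF4, was close to the limit of detection. It had 1, 1, 1 and 2 counts in the 2D-primed libraries and 5, 8, 13 and 11 counts in the 3D-primed libraries. The sums of 5 and 37 counts gave a ratio of 6.75 with a 95% interval of 2.65 to 22.0 that covers counting error only (edgeR's adjusted p = 0.0012). CHAC1 passed the filter only through 3D-primed libraries, the group where it was higher. Neither the interval nor the p is therefore independent evidence of a rise. The 3D-primed libraries were all higher, at a level far under 1 CPM.

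PPP1R15A (chr19:48872212-48876059), the regulatory subunit GADD34 that directs the phosphatase back to eIF2, stood at 89.99, 109.9, 111 and 109 CPM in 2D-primed libraries and at 26.0, 29.9, 36.6 and 28.2 CPM in 3D-primed libraries. The lowest 2D-primed library was above every 3D-primed library by a wide margin, and PPP1R15A fell by 1.80 on the log2 scale (SE 0.104, 3.48-fold higher in 2D-primed cells, edgeR's adjusted p = 2.7e-07). ATF3 (chr1:212565334-212620777), an immediate stress-induced repressor, stood at 46.1, 41.1, 55.3 and 43.97 CPM in 2D-primed libraries and at 13.8, 15.5, 21.6 and 14.2 CPM in 3D-primed libraries. ATF3 fell by 1.51 (SE 0.142, 2.86-fold higher in 2D-primed cells, edgeR's adjusted p = 6.5e-06). In both genes 3D-primed replicate 3 was the highest 3D-primed library, and leaving out each library in turn kept the log2 fold change between -1.91 and -1.74 for PPP1R15A and between -1.69 and -1.42 for ATF3.

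DDIT3 (chr12:57516588-57521737), which encodes CHOP, the factor tied to cell death in prolonged ER stress, stood at 19.2, 18.2, 19.7 and 19.1 CPM in 2D-primed libraries and at 15.7, 14.4, 16.8 and 13.7 CPM in 3D-primed libraries. The groups did not overlap, and DDIT3 fell by 0.33 on the log2 scale (SE 0.0688, edgeR's adjusted p = 0.0018). STC2, a secreted glycoprotein induced by PERK signalling and by hypoxia, stood at 181, 234, 253 and 227 CPM in 2D-primed libraries and at 145, 146, 176 and 134 CPM in 3D-primed libraries. STC2 fell by 0.57 (SE 0.107, edgeR's adjusted p = 0.00083), again without overlap. The direction of these 4 genes held in each of the 17 alternative analyses.

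The other genes of the pathway, in lists also fixed with earlier results of these data known, did not move as a block. Their counts are to be read against the 32.4% of all genes called higher and the 31.6% called lower. Of 31 other folding enzymes of the ER lumen, 18 were higher and 5 were lower, with a median log2 fold change of 0.17. The oxidase ERO1A, the hypoxia-responsive relative of ERO1B, was among the lower ones, at 555 to 673 CPM in the 2D-primed group and 155 to 239 CPM in 3D-primed libraries, and fell by 1.65 (SE 0.118, edgeR's adjusted p = 1.1e-06). The oxidase pair thus moved in opposite directions. Of 17 genes of the translocon, which carries new chains into the ER, 15 were higher and 1 was lower (median 0.29, largest rise 0.90). Those with the smallest p were SEC63 at 0.71 and the signal peptidase subunit SPCS3 at 0.70 (edgeR's adjusted p = 1.1e-07 and 3.5e-07).

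Of 21 other degradation genes, 9 were higher and 10 were lower (median -0.09), with UFD1, a p97 cofactor, at 0.69 and the mannosidase MAN1B1 at -0.39 (edgeR's adjusted p = 3.3e-06 and 9.7e-06). Of 21 tested genes of ER exit, 8 were higher and 9 lower, with the COPII coat genes SEC24B at -0.62 and SEC23A at -0.44 (edgeR's adjusted p = 5.7e-07 and 1.3e-06). Of 15 tested further regulators of the response, 7 were higher and 5 lower, with the ER-bound factor CREB3L2 at 0.80 and TXNIP, an inhibitor of thioredoxin, at -1.89 (edgeR's adjusted p = 1.7e-06 and 6.7e-06). Of 13 genes of the eIF2 cycle, 4 were higher and 4 lower, with the eIF2 subunit EIF2S2 at 0.66 and PPP1R15B, the constitutive counterpart of PPP1R15A, at -0.40 (edgeR's adjusted p = 3.1e-07 and 3.2e-05). Of 9 mitochondrial chaperones and proteases, 4 were higher and 2 lower, with HSPA9 at 0.53 and CLPX at -0.69 (edgeR's adjusted p = 4.3e-07 and 9.4e-07). Counts higher and lower in these lists were near each other, whereas in the folding and translocon lists higher genes were the majority.

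The amino acid and other metabolic targets of ATF4 had a higher median change than any arm of the ER genes. Of 26 tested genes, 20 were higher and 6 were lower, against 32.4% and 31.6% of all genes, with a median log2 fold change of 0.97 and a range of -1.55 to 3.72. The 4 genes of the smallest p were all higher. ASNS, asparagine synthetase, rose 9.35-fold (log2 fold change 3.22, edgeR's adjusted p = 1.8e-10), and PSAT1, of serine synthesis, rose 5.15-fold (log2 fold change 2.37, edgeR's adjusted p = 4.7e-09). The one-carbon enzymes MTHFD2 and SHMT2 rose by 1.56 and 1.29 on the log2 scale (edgeR's adjusted p = 4.7e-09 for each). Beside these, the median of the 11 chaperones was 0.52, that of the disulfide genes 0.12 and that of the degradation genes 0.29.

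**Figure D5:**
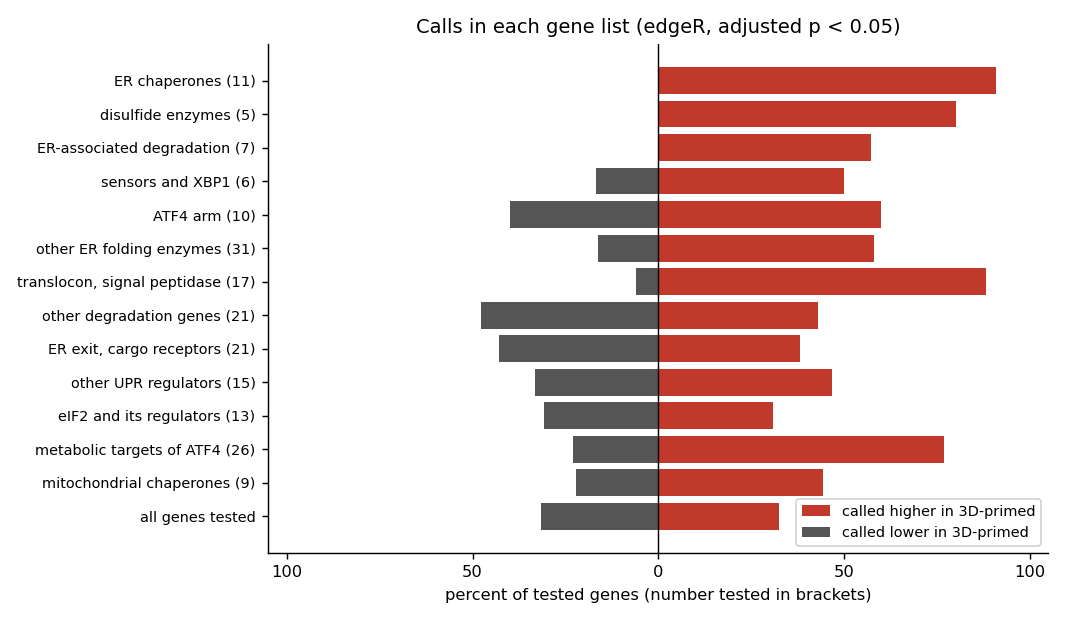
Percent of tested genes called higher (right) and lower (left) in 3D-primed cells (x axis) for each arm, each other list and all genes tested (y axis, number tested in brackets). The chaperone bar stands for 10 higher and 0 lower genes, the ATF4 arm 6 (CHAC1 among them) and 4, and the metabolic ATF4 targets 20 and 6.

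The ER stress element was also looked up in genes outside the list, a comparison chosen after the values were seen and carrying no test. Of the 14 tested genes with the element in the window, 12 were higher and 0 were lower, against 34.4% higher and 32.6% lower among 10212 tested genes with a window. Without the members 7 genes remained, of which 6 were higher, among them the mannosyltransferase ALG12 at 0.57 (edgeR's adjusted p = 7.8e-06), FICD, which AMPylates HSPA5, at 0.58 (edgeR's adjusted p = 0.0019), and SERP1, a translocon-associated protein, at 0.56 (edgeR's adjusted p = 1.1e-06). ALG12 shares its window in part with CRELD2, and SERP1 with EIF2A, so these genes are not independent. Among the 15 folding members with a window, the 6 with the element in the searched form had a median log2 fold change of 0.22. The 9 without that form had 0.52. Those 9 may hold the parts of the element at another spacing or order, which was not searched. HYOU1 among them did so, with CCAAT beside its TGACGTG. The 2 medians therefore do not compare genes with and without sites for the response. Of the 255 tested genes whose window held TGACGTG, 36.9% were higher and 34.1% lower, and of the 174 with TGATGNAA, 43.1% were higher and 30.5% lower.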

How the data were processed

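RNA from 8 HepG2 libraries (4 2D-primed, 4 3D-primed) was analysed from per-sample gene tables. The authors deposited estimated counts per Ensembl gene, made with Salmon against GRCh38 transcripts and summed to genes with tximport. Whether tximport corrected the counts for transcript length was not stated, and such a correction would alter counts of genes whose isoform use differed. Salmon divides reads between similar transcripts by probability, so close copies can trade reads. The values were whole numbers and were used as deposited, and symbols from the reference annotation covered 92.0% of identifiers and 97.5% of counts.

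Genes that reached 10 counts in 2 or more libraries were tested with edgeR 4.0.16 (R 4.3.3, TMM scaling, quasi-likelihood test) without a block, and p-values were Benjamini-Hochberg adjusted over all 13943 genes with a threshold of 0.05. CPM were computed after TMM scaling, group spreads are SDs over n = 4, and intervals are 95% intervals. Levels between genes were divided by the length of the MANE Select or otherwise longest protein-coding transcript. The fit was also run on simulated data with far fewer changed genes than were called here. That run does not test the scaling or the calls at this share of changed genes. The biological coefficient of variation was 0.0934, and chi-square per degree of freedom between libraries of 1 group was 6.19 to 17.0, so no library was a copy of another. Alternatives were DESeq2 1.42.0, limma-voom (limma 3.58.1), other scalings, other filters on low counts, a replicate block and leaving out each library.

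All 40 members were named, and in each other list the 2 genes with the smallest p (4 for the metabolic ATF4 targets). Pseudogenes of members were named where they passed the filter. The members and lists were chosen with earlier results of these data known. Promoters were RefSeq windows of 250 bases before to 50 bases after the start, and gene positions are from GENCODE on GRCh38. A planned count of C-terminal retrieval signals was not analysed here.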

Additional observations from a re-analysis of the deposited data

Results flagged for a closer look

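In 10 of 116 groups of 4 libraries, over 58 named genes, 1 library stood apart from the other libraries of its group by Dixon's test at the 95% level, which chance does for about 5% of groups. For ERN1, 3D-primed replicate 3 was at 50.8 CPM against 36.7 to 38.4 CPM in the others. For HSP90B1, 3D-primed replicate 2 was at 2483 CPM against 2291 to 2318 CPM. For CALR, 2D-primed replicate 2 was at 1143 CPM against 1122 to 1124 CPM. 2D-primed replicate 1 stood apart for DNAJC3 (98.3 CPM against 85.3 to 86.8 CPM), MANF (78.0 CPM against 65.1 to 66.5 CPM) and PPP1R15A (89.99 CPM against 109 to 111 CPM). For TRIB3, 2D-primed replicate 2 was at 103 CPM against 94.6 to 96.1 CPM. For CHAC1, 2D-primed replicate 4 was at 0.0844 CPM against 0.0407 to 0.0458 CPM, which is 2 counts against 1. For SEC23A, 3D-primed replicate 1 was at 583 CPM against 567 to 570 CPM, and for EIF2S2, 2D-primed replicate 3 was at 179 CPM against 166 to 169 CPM. Of these genes, ERN1 is the one whose call changed when the library was left out.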

How the results depend on the processing

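Of 39 members, 31 kept direction and call in every one of the 17 alternatives that gave them a value, as did 50 of 58 named genes. Over the alternatives that kept all libraries, 30 to 32 members were called, and leaving out each library in turn gave 31 to 32 members, 25 to 27 of them higher and 5 to 7 lower, with 8357 to 8875 of all genes called. The median log2 fold change of the sensors was -0.000631 to 0.22 when a library was left out, turning sign without 3D-primed replicate 3. That of the degradation genes was 0.32 with total counts, 0.34 with upper quartile scaling and 0.27 to 0.31 with a library left out. That of the disulfide genes was 0.17 with upper quartile scaling. These scalings moved the median of all genes to 0.04 and 0.06. That of the ATF4 arm was 0.51 with edgeR's own filter and with 10 counts in all 8 libraries, where CHAC1 was no longer tested, and 0.51 to 0.75 with a library left out. Signs turned for 5 members that did not pass the test. ERN1 was at 0.015 with upper quartile scaling and -0.17 to 0.012 with a library left out, ATF6B at -0.26 to 0.70, and SEL1L at -0.016 to 0.034. CANX was at 0.0084 with total counts, 0.031 with upper quartile scaling and -0.12 to 0.038 with a library left out. DERL1 was at -0.000479 with DESeq2, -0.000132 with median-of-ratios scaling and -0.020 to 0.026 with a library left out. PDIA6 lost its call in 11 alternatives (adjusted p 0.0071 to 0.15 over all, by the tool of each). Same-numbered libraries correlated between -0.04 and 0.06 in their deviations from the group means. The highest value of any pair, 0.11, was between 2D-primed replicate 2 and 3D-primed replicate 1. With 4 libraries per group, these values cannot decide whether same-numbered libraries were handled together. With the replicate block, 8490 genes and 31 members were called, PDIA6 being lost at an adjusted p of 0.096 (edgeR). The cause of these differences was not tested, apart from the genes and libraries that each alternative leaves out. CHAC1 lies at the depth limit, and DERL3 was not detectable at this depth.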
